A study of Mus musculus with 7 samples.

Results

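The cells described here are 95 tumour cells of library 1 of experiment (i), each sorted alone as positive for E-cadherin (Ecad), the epithelial adhesion protein encoded by Cdh1. They came from mammary tumours of mice with the PyMT transgene, the polyoma middle T oncogene used as a mouse model of breast cancer. A well counted as a cell when it held at least 500 transcripts, spike-ins left out, and 95 of the 96 wells did. The remaining well held 69.1 transcripts. The same rule left 381 cells in the 7 libraries of the series. All wells of an experiment (i) library carry the same sorted label. Beside library 1 stand library 2 of experiment (i), which has the same label and gave 65 cells, and 2 populations from the 4 libraries of experiment (ii), namely 71 Ecad-positive cells of solid tumours and 60 Ecad-negative cells sorted from blood. All of these groups came from PyMT mice. Promoter of the transgene, strain, age and number of mice are not given in the labels, and neither is whether libraries 1 and 2 came from different tumours. All 96 well barcodes are shared between the libraries.

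In CEL-seq, the method used, every cell gets its own barcode, every molecule a random one besides, and sequencing starts from the tail of the transcript. A transcript is counted once whatever its length, so levels are given as transcripts of a gene per 10000 transcripts, with no scaling by length. A single library holds all the cells, so there is no replicate and no test. Intervals are exact 95% Poisson or binomial intervals. They cover counting error only for levels, shares of transcripts and ratios, and the draw of cells only for detection. The spread given is that between cells, which are not replicates.

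The lining of the mammary gland has an outer basal layer of contractile cells and an inner luminal layer. Luminal cells fall broadly into a secretory lineage, which with its progenitors makes milk and antimicrobial proteins, and a hormone-sensing lineage, which carries the receptors for oestrogen, progesterone and prolactin and signals to its neighbours. Tumours of PyMT mice are known as largely luminal. Secreted proteins of the luminal layer include caseins, iron-binding proteins such as lipocalin 2, lactoferrin and transferrin, and opsonins and acute-phase proteins.

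Library 1 held 438102 transcripts in its 95 cells, from 519 to 65391 per cell with a median of 3083, against a median of 883 in library 2. Genes detected per cell ran from 388 to 7928 with a median of 1664, and followed the number of transcripts closely across cells (Spearman rho 0.992, n = 95). Well 29 alone held 65391 transcripts, 14.9% of the library, and the next largest, well 80, held 20632. Depth also differed along the plate. The median was 1930 transcripts in wells 1 to 24, 2804 in wells 25 to 48, 6128 in wells 49 to 72 and 3511 in wells 73 to 96. The labels do not say what a block of 24 wells was, and depth and block are given beside the results they touch.

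**Figure D1:**
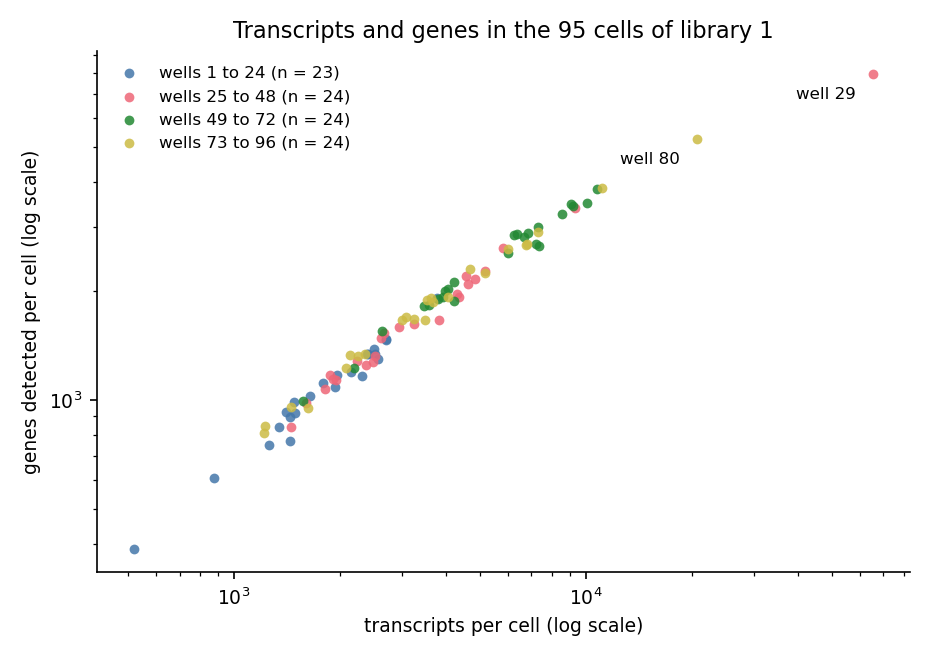
Genes detected against transcripts per cell for the 95 cells of library 1, both axes on a log scale, each point 1 cell coloured by block of 24 wells. Cells of the first block lie toward the left, cells of the third toward the right, and well 29 lies far beyond the rest at 65391 transcripts and 7928 genes.

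In all, 12144 genes had a transcript in at least 1 cell, and 1510 of them in 1 cell alone. At the other end, 645 genes were detected in at least 48 of the cells, and 28 in every cell, of which 22 encode cytosolic ribosomal proteins. When each cell was thinned to 500 transcripts, the number of genes per cell was similar between cells, from 339 to 425 with a median of 392. At the same thinned depth the median was 351 genes in library 2, 372 in the Ecad-positive tumour cells of experiment (ii) and 345 in the Ecad-negative blood cells. At equal depth the median cell of library 1 thus showed more genes than that of each other group, with no test of the difference.

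The label was borne out by the 6 marker genes in most cells. Cdh1 (chr8:106603350-106670247) was detected in 81 of the 95 cells, with 0 at the lowest, 9.35 at the median and 32.4 per 10000 at the highest. Epcam (chr17:87635979-87651127), an epithelial surface adhesion protein, was detected in 84 cells, with a median of 10.6 and a highest value of 34.5 per 10000. Krt8 (chr15:101996711-102004342) and Krt18 (chr15:102028216-102032026) encode the keratin pair of simple epithelia, which are luminal in the mammary gland. They were detected in 87 and 93 cells. The median of Krt8 was 10.9 per 10000 and that of Krt18 was 16.9, and the highest cells reached 125 and 72.7. Csn3 (chr5:87925579-87932550), which encodes kappa-casein, was detected in 93 cells, and Lcn2 (chr2:32384637-32387739), which encodes lipocalin 2, a binder of bacterial iron carriers, in 94. Csn3 ran from 0 through a median of 104 to 324 per 10000, and Lcn2 from 0 through 94.96 to 421. Krt8, Csn3 and Lcn2 thus spanned a wider range of absolute levels between cells than Cdh1 and Epcam. The variance over the squared mean was 1.37 for Krt8, 0.523 for Krt18, 0.470 for Csn3 and 0.560 for Lcn2. It was 0.598 for Cdh1 and 0.480 for Epcam, and counting adds more to it at low levels. Positions are from RefSeq on GRCm38.p6, the assembly that mm10 names, and all 6 genes are protein-coding.

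Detection depends on depth, so it was also counted in cells thinned to 500 transcripts. Csn3 was then detected in 84.2% of the cells (exact binomial interval 75.3 to 90.9%) and Lcn2 in 89.5% (81.5 to 94.8%). Ecad-negative blood cells had a Csn3 transcript in 24 of 60 cells (27.6 to 53.5%) at the same thinned depth, with median depths of 3083 and 819 transcripts before thinning. That share is a background for single Csn3 transcripts only if no tumour cells are among the blood cells, and whether any are was not tested. It comes from other libraries, which also held tumour wells, and the source of these transcripts was not tested. Lcn2 was at 66.7% (53.3 to 78.3%) in the blood cells, but it is also a granule gene of neutrophils, and S100a9, a neutrophil and monocyte gene, was detected in 60 of these 60 cells at full depth. Blood cells therefore give no background for Lcn2. For Krt18 the thinned shares were 57.9% (47.3 to 67.96%) in library 1 and 6.67% (1.85 to 16.2%) in blood cells, and for Epcam 38.9% (29.1 to 49.5%) and 6.67%. Thinned Cdh1 was detected in 38 of 95 cells of library 1 (30.1 to 50.6%) and in 12 of 60 blood cells (10.8 to 32.3%). For Cdh1 these intervals overlap. The groups come from different libraries and cells are not replicates, and no difference between these detected shares was tested.

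**Figure D2:**
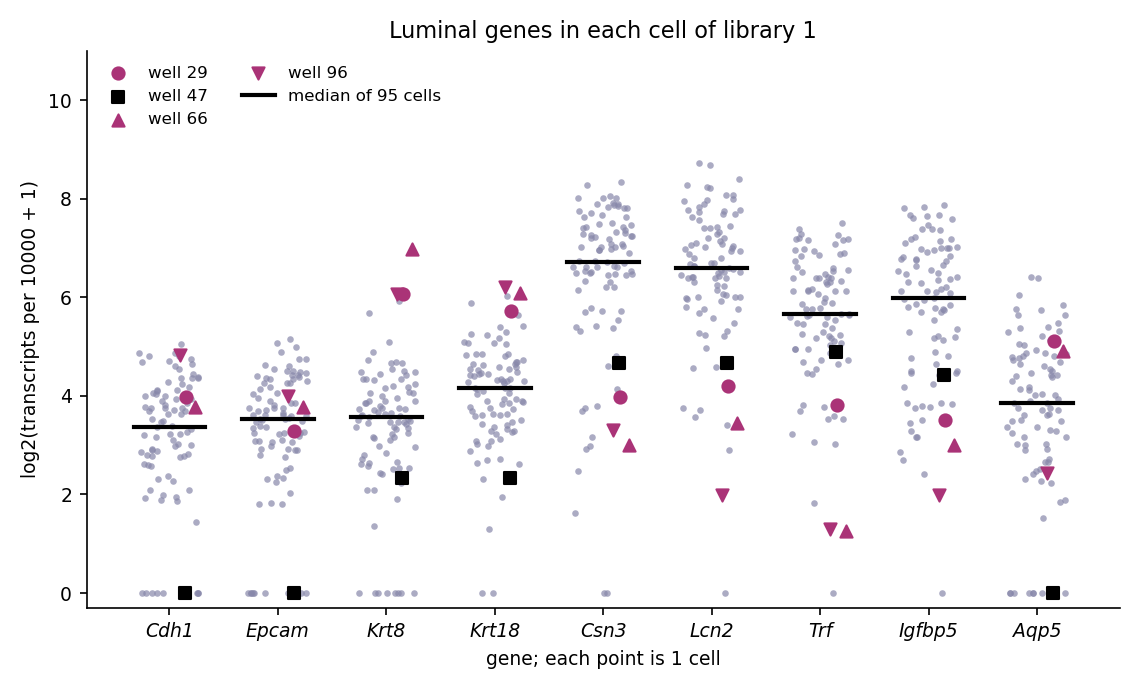
Levels of 9 luminal genes in each of the 95 cells of library 1, as log2(transcripts per 10000 + 1), with each point 1 cell and bars at the median. The 4 wells with their own symbols are described further on: wells 29, 66 and 96 lie high for Krt8 and Krt18 and low for Csn3, Lcn2, Trf and Igfbp5, and well 47 has no Cdh1, Epcam or Aqp5 transcript.

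Among the 25 most abundant genes of the library, 19 were ribosomal protein genes or copies of them, and the other 6 were Csn3, Lcn2, Ptma, Trf, Igfbp5 and Ly6e. Csn3 and Lcn2 led the whole library, at 93.8 (90.9 to 96.7) and 93.6 (90.7 to 96.5) per 10000, and their counting intervals overlapped. Rps3a1 followed at 81.2 and Rpl41 at 79.1 per 10000. Ptma, which encodes the chromatin-associated protein prothymosin alpha, stood at 67.3. Transferrin, encoded by Trf (chr9:103208876-103230286), stood at 53.5 and Igfbp5 (chr1:72858065-72874865), which encodes a binder of insulin-like growth factors, at 53.2. Both were detected in 94 cells. Ly6e, a small surface-anchored protein gene, stood at 39.4 per 10000 and was detected in 93 cells. Each cell weighs the same in the mean over cells, which was 117 for Csn3, 121 for Lcn2, 62.4 for Trf and 76.7 for Igfbp5, higher than the pooled level in each case. Shares of all 4 genes were lower in cells with more transcripts (rho with depth -0.22 for Csn3, -0.36 for Lcn2, -0.19 for Trf and -0.43 for Igfbp5).

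Epithelial genes together took 1.24% of transcripts (1.21 to 1.28%), and all 25 listed genes were measured, 12 of them with a mean of at least 1 transcript per cell. Beyond the markers, Cd24a, a luminal surface protein gene, stood at 11.6 per 10000 and was detected in 74 cells, with 45.8% of its transcripts in well 29 and a level of 7.40 without that well. Krt8 likewise had 43.6% of its transcripts in well 29, and its level was 22.5 per 10000 with that well and 14.9 without it. Krt19, a further simple keratin, had 52.99% of its transcripts in that well.

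Milk proteins took 1.39% (1.36 to 1.43%) of transcripts, with all 15 listed genes measured but 4 at a mean of at least 1 per cell. Those 4 were Csn3, Wfdc18, Mfge8 and Lalba. Wfdc18, which encodes a small whey acidic-type protein also called Expi, stood at 27.5 per 10000 and ran from 0 through a median of 20.8 to 290. Mfge8, a protein of the milk fat globule membrane, stood at 8.64. Lalba, the alpha-lactalbumin subunit of lactose synthase, stood at 4.68 and was detected in 33 cells, with its highest cell at 78.01. Kappa-casein thus made up most of this list, and the milk share per cell ran from 0.042% through a median of 1.61% to 4.90%. Secretory and defence genes took 2.07% (2.03 to 2.12%). Lcn2 and Trf led them, followed by Clu at 11.7 and Cp at 11.1 per 10000. Clu encodes clusterin, a secreted chaperone, and Cp encodes ceruloplasmin, a copper enzyme that oxidises iron. Ltf, which encodes lactoferrin, stood at 8.26 but was detected in 45 cells only, and its highest cell reached 141. Lbp, the lipopolysaccharide-binding protein gene, was detected in 69 cells at 5.43, and Pigr, the transporter of secretory antibodies, in 45 cells at 2.50. Every cell held a transcript of both lists.

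Luminal transcription factors took 0.431% (0.412 to 0.451%), and all 20 listed genes were measured. Xbp1, a factor of the secretory pathway, led at 9.01 per 10000 in 74 cells. Gata3, a determinant of luminal identity, stood at 7.33 in 72 cells and Sox4 at 4.43 in 64. Elf5, the factor of the secretory lineage, stood at 2.16 in 52 cells. Foxa1, a factor of hormone-sensing cells, stood at 4.76, but in 15 cells only and with 71.5% of its transcripts in well 29. Kit, a receptor of luminal progenitors, was detected in 51 cells at 2.09. Esr1, the oestrogen receptor gene, had 1 transcript in the whole library. Hormone-sensing genes took 0.355% of all transcripts but 0.125% without well 29. Their share was at a median of 0.046% per cell and at 1.67% in the highest, and 23 cells had none. Ion and solute transport genes took 0.668% (0.645 to 0.693%). Aqp5 (chr15:99591028-99594829), a water channel, led this list at 22.8 per 10000 in 84 cells, from 0 through 13.5 to 84.4.

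Metabolic, growth and stress programs differed in how far they ranged between cells. Cytosolic ribosomal protein genes took 18.9% (18.8 to 19.04%) of transcripts, from 11.6 to 30.7% per cell. Oxidative phosphorylation genes took 2.05%, with 36 of 45 at a mean of at least 1 per cell and a range between cells from 1.02 to 3.30%. Glycolysis and hypoxia genes took 0.754%, from 0.138 to 2.17% per cell, led by Ldha at 18.4 and Aldoa at 14.98 per 10000, which encode lactate dehydrogenase A and the glycolytic aldolase. Heat shock chaperones took 0.681%, led by Hspa8 at 20.9 and Hsp90ab1 at 17.3. Immediate early genes took 0.383%, from 0.076 to 2.93% per cell. Zfp36l1 at 12.4 and Phlda1 at 8.82 led these, while Fos stood at 1.54 and Jun at 2.63, each a subunit of the transcription factor AP-1. Lipid synthesis genes took 0.258%, interferon response genes 0.236% and MHC class I genes 0.487%, of which B2m, the shared light chain, stood at 16.3 per 10000. S phase genes took 0.072% and mitosis genes 0.064%. Pcna, the sliding clamp of DNA replication, had 39 transcripts in 20 cells. Top2a had 27 in 12 cells and Mki67 had 9 in 7 cells. At this depth a cell with none of them cannot be called non-dividing. No gene of the mitochondrial genome was among the measured genes.

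Markers of other cell types were near 0 in all but a few wells. Basal and myoepithelial genes took 0.027% of transcripts (12 of 15 listed genes measured, 53 cells with any). Krt14, a basal keratin, had 30 transcripts in 15 cells, and Acta2, smooth muscle actin, had 3. Mesenchymal genes took 0.039%. Vim, the mesenchymal filament vimentin, had 10 transcripts in 8 cells (8.42% of cells, 3.71 to 15.9%). The 4 measured transcription factors of epithelial-to-mesenchymal transition had 5 transcripts in all, among them 1 each of Snai1, Snai2 and Zeb2 and 2 of Prrx1. Endothelial genes took 0.020%, fibroblast genes 0.023%, general leukocyte genes 0.057%, neutrophil genes 0.025%, and T, NK and B cell genes 0.004%. Ptprc, the leukocyte surface phosphatase, had 3 transcripts in 2 cells. Monocyte and macrophage genes took 0.049%, from 0 at the median to 5.96% in a single well, while the next highest well held 0.404%.

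That well, number 47 with 2477 transcripts, carried C1qa (23 transcripts) and C1qb (29), subunits of the complement starter C1q, and Apoe (35), the lipid carrier apolipoprotein E. It held 13 transcripts of Lyz1, 20 of H2-Aa and 17 of H2-Eb1, the last a pair of MHC class II chains. It also held 94 of Tmsb4x, an actin-binding thymosin. No other cell was higher for any of these 7 genes. Cdh1 and Epcam were at 0 in it and Krt8 and Krt18 at 1 transcript each, yet it held 6 transcripts each of Csn3 and Lcn2, that is 24.5 per 10000, against medians of 105 and 96.3 in the other cells. The genes of this well go against the sorted label, and it was kept by the rule. Without it, the 94 other cells gave 191 gene pairs at a rho of 0.4 or more, against 178 in all cells.

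Variation between cells was measured as the variance over the mean of each gene's transcripts after cells were scaled to the same depth. Counting alone, given the spread of depth between cells, would put this ratio at 1.17 for every gene. Of the 1713 genes with a mean of at least 0.5 transcripts per cell, the median ratio was 1.32, and 249 genes (14.5%) were at 2 or more, 55 at 5 or more and 34 at 10 or more. Most genes therefore varied little beyond counting. Ribosomal protein genes had a median of 1.62 over 75 genes, with none at 5 or more. Secretory and milk genes stood far above that, with 20.9 for Lcn2, 18.2 for Wfdc18, 16.9 for Csn3, 15.3 for Igfbp5 and 9.55 for Trf. Of the 13 secretory and defence genes with a mean of at least 0.5, 11 were at 2 or more, and so were 4 of 5 milk genes. The shares were also high for immediate early genes (6 of 7), hormone-sensing genes (6 of 7), glycolysis and hypoxia genes (7 of 12) and luminal transcription factors (6 of 11). The share was low for oxidative phosphorylation genes (1 of 42), while that of translation factors (2 of 20) was near the 14.5% over all genes. Among the markers Krt8 stood at 6.06, Krt18 at 3.19, Cdh1 at 1.97 and Epcam at 1.72.

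**Figure D3:**
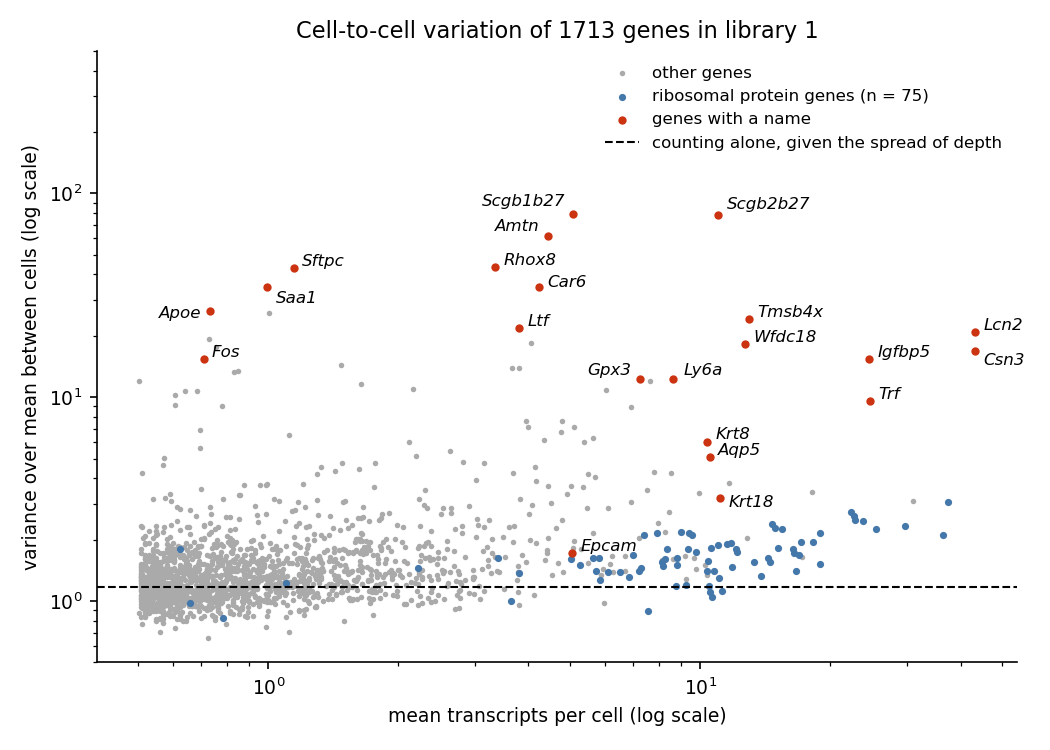
Variance over mean between cells against mean transcripts per cell for 1713 genes of library 1, both axes on a log scale, with ribosomal protein genes in blue and named genes in red. The dashed line at 1.17 is what counting alone gives; Scgb1b27 and Scgb2b27 lie highest, near 79, and the ribosomal genes lie below 5.

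The 25 genes with the largest ratios ended with Gpx3 at 12.3, and the next gene outside them stood at 12.2. They differed in how widely they were detected. Lcn2, Csn3, Igfbp5, Wfdc18, Tmsb4x and Scgb2b27 were detected in 79 to 94 cells. Cst3, Chi3l1 and Ltf, which encode cystatin C, a chitinase-like protein and lactoferrin, were detected in 60, 55 and 45. For 10 of the 25 genes at least 0.5 of all transcripts lay in 1 well. Sftpc, which encodes the lung surfactant protein C, had 105 of its 109 transcripts in well 66, where it reached 146 per 10000, against 2.80 in the highest other cell. Rhox8, a homeobox gene of the reproductive tissue cluster, had 203 of its 319 transcripts in well 82. Saa1, an acute-phase serum amyloid gene, had 63 of its 94 transcripts in well 93. Amtn, which encodes the enamel protein amelotin, was detected in 34 cells but had 147 of 422 transcripts in well 69. Car6, a secreted carbonic anhydrase, had 137 of 402 in well 30. That well was also the highest for Mup5, a major urinary protein gene, with 42 of 72 transcripts. Mt2, a metallothionein gene, had 49 of 81 transcripts in well 96. Each of these wells carried the same sorted label. Reads shared by close copies may have been split between genes of the Scgb, Mup, Saa and Lyz families, since the sources used here do not say how such reads were assigned.

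The 2 most variable genes were neighbours. Scgb1b27 and Scgb2b27 encode secretoglobins, small secreted proteins of glands, and stood at ratios of 79.1 and 78.4. Scgb1b27 lies at chr7:34021481-34022881 on the plus strand and Scgb2b27 at chr7:34011919-34013942 on the minus strand, so that they point away from each other with 7539 bases between their start sites. Scgb1b27 was detected in 60 cells, from 0 through a median of 2.20 to 443 per 10000. Scgb2b27 was detected in 79 cells, from 0 through 7.16 to 608. Well 51 held 142 transcripts of Scgb1b27, 29.4% of all, and 238 of Scgb2b27, 22.8% of all. The 300 bases around each start site, 250 before it and 50 after it, are shown because these genes gave the highest Spearman correlation of any pair at full depth. Wfdc18 is shown beside them as the most variable milk gene in the promoter table. The letters TATAAA on the strand of the gene are in capitals.
Scgb1b27: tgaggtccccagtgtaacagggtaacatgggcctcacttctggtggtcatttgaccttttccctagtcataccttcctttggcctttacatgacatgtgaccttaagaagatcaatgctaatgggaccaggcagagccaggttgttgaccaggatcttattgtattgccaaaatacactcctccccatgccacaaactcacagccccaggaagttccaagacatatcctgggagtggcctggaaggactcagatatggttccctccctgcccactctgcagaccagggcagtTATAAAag
Scgb2b27: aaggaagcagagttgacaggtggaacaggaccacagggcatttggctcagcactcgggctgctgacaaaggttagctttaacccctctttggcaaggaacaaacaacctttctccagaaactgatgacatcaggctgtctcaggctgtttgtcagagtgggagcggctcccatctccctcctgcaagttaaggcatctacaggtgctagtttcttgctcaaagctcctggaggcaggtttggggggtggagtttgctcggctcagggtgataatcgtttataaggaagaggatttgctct
Wfdc18: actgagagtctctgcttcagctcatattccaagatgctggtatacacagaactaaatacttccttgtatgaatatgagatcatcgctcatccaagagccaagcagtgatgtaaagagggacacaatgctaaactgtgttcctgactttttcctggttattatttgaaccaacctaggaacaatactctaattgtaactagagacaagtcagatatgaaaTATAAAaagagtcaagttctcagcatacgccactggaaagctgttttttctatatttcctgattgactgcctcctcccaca
The windows are chr7:34021231-34021530 (plus strand), chr7:34013893-34014192 (minus strand) and chr11:83708754-83709053 (plus strand) of GRCm38.p6 in RefSeq, printed 5′ to 3′ on the strand of the gene. TATAAA begins 31 bases before the start site in Wfdc18 and 42 bases after it in Scgb1b27, and is not in the Scgb2b27 window on that strand. It was searched after values were seen. Among the 25 most variable genes, 18 had an entry, with 20 promoters, and 4 promoters held TATAAA on the gene's strand, those of Apoe, Fos, Scgb1b27 and Wfdc18. The share was 8.32% among all 32851 promoters and 5.41% among the 1663 of genes with a mean of at least 0.5. The letters TTCNNNGAA, the site of STAT factors, and TGACGTCA, the cyclic AMP response element, each read on both strands, were in 0 of the 20, against 8.30% and 1.79% of all promoters and 6.25% and 3.55% of those of genes with that mean. TGACTCA, the AP-1 site, was in 1 of them, that of Mt2, against 5.20% and 4.03%. The letters TTTGAA were in 4, against 17.9% and 10.2%. Of the 5 milk genes and the 7 immediate early genes with a mean of at least 0.5, 4 and 5 had an entry, and none of these held a match to the STAT, cyclic AMP or AP-1 letters. The letters TTTGAA were in the promoters of Wfdc18, Klf6 and Zfp36l1 among them, and in that of Tubb4b, the only mitosis gene above that mean. Csn3 is not in the promoter table.

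Covariation was measured by Spearman correlation of each gene's share across the 95 cells, over 631 genes with a mean of at least 1 transcript per cell, ribosomal genes left out. Cells share the library and differ in depth, so every value is a description. The 198765 pairs had a median rho of 0.029, and 178 pairs (0.0896%) reached 0.4 while 36 were at -0.4 or below. The closest pair was Scgb1b27 with Scgb2b27 at 0.58. Among cells thinned to 2000 transcripts it stood at 0.38, and it was 0.16 in library 2. Scgb1b27 with Spt1, a salivary protein gene, also rounded to 0.58, and stood at 0.20 among thinned cells. Next came Cp with Lcn2 at 0.56, Ido1 with Krt4 at 0.56, Aqp5 with Kcnn4 at 0.55, Prol1 with Spt1 at 0.55 and Aqp5 with Dkkl1 at 0.55. Clu with Cp and Csn3 with Igfbp5 both stood at 0.54. The 15th pair, Cp with Igfbp5, was at 0.504 and the 16th at 0.501. Of these 15 pairs 9 were above 0 in each of the 4 blocks of wells. Scgb1b27 with Scgb2b27, Spt1 and Prol1, Prol1 with Spt1, and Ido1 with Krt4 were above 0 in 3 blocks. They had no value in the remaining block, where a gene of the pair did not vary, and the part of block was not tested. Gpx3 with Ly6a ran from -0.14 to 0.76 within blocks. Ido1 with Krt4 rested on 5 cells that held both, and Gpx3 with Ly6a, at 0.53, on 16.

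Many of these pairs belonged to a secretory set of 7 genes, put together after values were seen: Csn3, Lcn2, Trf, Igfbp5, Cp, Lbp and Clu. All 21 of its pairs were above 0, from 0.101 to 0.561 with a median of 0.446. Csn3 with Lcn2 stood at 0.49, Csn3 with Trf at 0.47, Lcn2 with Trf at 0.49 and Lcn2 with Lbp at 0.52. At a given depth (partial Spearman correlation) these came to 0.45, 0.45, 0.46 and 0.50, and among cells thinned to 2000 transcripts (71 cells) the median of the set was 0.417. Within blocks of wells, Csn3 with Lcn2 ran from -0.02 to 0.68. Beyond the set, the genes closest to Csn3 were the agouti gene a at 0.42, Lrg1, a leucine-rich glycoprotein, at 0.39 and Mgst1, a microsomal glutathione transferase, at 0.38. Gpx4, which repairs lipid peroxides, stood at 0.35 with Lcn2. Wfdc18 followed Csn3 less closely, at 0.34. In each cell the 7 genes together took from 0.277% through a median of 4.19% to 8.59% of transcripts. The block medians were 5.62, 3.72, 3.09 and 4.45%, lowest in the deepest block, and the share fell with depth across cells (rho -0.43).

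A channel set, also put together after values were seen, held Aqp5, Kcnn4, Ano1, Dkkl1 and Ldha. Kcnn4 encodes a calcium-activated potassium channel and Ano1 a calcium-activated chloride channel. Its 10 pairs ran from 0.231 to 0.549 with a median of 0.478. Aqp5 with Kcnn4 kept 0.55 among thinned cells, but Aqp5 with Ano1 was at 0.40 and Aqp5 with Ldha at 0.35 there, against 0.51 and 0.46 in unthinned cells, and the set's median was 0.340. Aqp5 also moved with Etv1, an ETS factor gene, at 0.47 and with Car12, a membrane carbonic anhydrase, at 0.44. The 5 genes took from 0.040% through 0.561% to 2.40% of a cell's transcripts and were higher in deeper cells (rho 0.30).

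The secretory and the channel set ran against each other in library 1. Of 35 pairs between them, 28 were below 0, with a median of -0.25 against 0.029 over all pairs. Both sets were chosen after values of these cells were seen, so these signs are not independent of that choice. Dkkl1 with Lcn2 stood at -0.51, Aqp5 with Cp at -0.50 and Clu with Dkkl1 at -0.48, each below 0 in all 4 blocks. Thinned to 2000 transcripts, 31 of the 35 were below 0 with a median of -0.17. Without wells 29, 47, 66 and 96, 29 were, with a median of -0.31. The summed shares of the sets were correlated at -0.27 across cells and at -0.17 at a given depth, and within the 4 blocks at -0.18, -0.36, -0.34 and -0.04. Cells were not split into 2 kinds: cells with a low secretory share held both high and low shares of the channel set, as the plot of the summed shares shows. In the first principal component of 1713 genes (4.98% of the variance) the same genes lay at opposite ends, Aqp5, Kcnn4 and Dkkl1 at one and Cp, Igfbp5, Lcn2, Csn3, Clu and Lbp at the other. That component followed depth at a rho of 0.92. When cells were thinned to 2000 transcripts, the first 3 components followed depth at 0.09, -0.26 and 0.01. The first (3.04%) then set S100a6, Krt7, Krt19, Clu and Ly6a against Kcnn4, Scgb2b27, Thrsp and Trf. The second (2.89%) set Igfbp5, Csn3, Cp, Wfdc18 and Lcn2 against Dkkl1, Car6, Ly6a, Scgb2b27 and Foxa1.

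**Figure D4:**
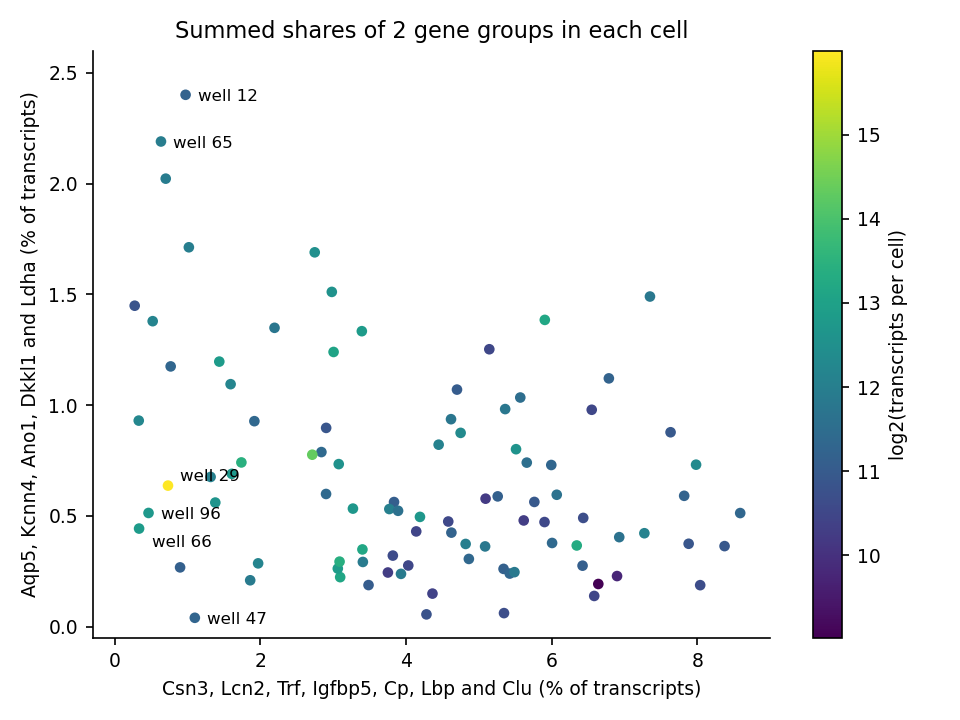
Share of transcripts of the channel set against that of the secretory set in each of the 95 cells of library 1, with colour for log2 of transcripts per cell. Well 12 lies highest at 2.40% of the channel set and 0.98% of the secretory set; deeper cells lie more often at the left, and wells 29, 66 and 96 lie at 0.73, 0.34 and 0.47% of the secretory set.

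Other cells gave these sets in part. In library 2 the 21 secretory pairs were also all above 0, from 0.098 to 0.602 with a median of 0.290, and in the Ecad-positive tumour cells of experiment (ii) they ran from 0.007 to 0.544 with a median of 0.238. Csn3 with Igfbp5 stood at 0.37 and 0.44 there, Csn3 with Lcn2 at 0.36 and 0.40, and Lcn2 with Trf at 0.37 and 0.54. The channel set had a median of 0.167 in library 2 and 0.052 over the 6 pairs measured in experiment (ii), where Ldha had no value. Aqp5 and Kcnn4 were detected together in 4 cells of library 2 and 0 of experiment (ii). Aqp5 and Ano1 were detected together in 7 and 2 cells, and Aqp5 and Dkkl1 in 1 and 8. Between the sets the median was 0.186 in library 2, where 3 of 35 pairs were below 0, and 0.029 in experiment (ii), where 12 of 28 were. In library 2 pairs between the sets were thus mostly above 0 too, with a median above the 0.167 within the channel set. No median over all pairs is given for these cells. Covariation within the secretory set cannot be told apart there from a general positive correlation. The opposition of the sets was thus seen in library 1 and not in the others. Cells of the others were shallower and few held both genes of these channel pairs, and the difference itself was not tested. Of the 15 closest pairs of library 1, 4 of 14 measured in library 2 and 5 of 11 measured in experiment (ii) reached 0.3.

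**Figure D5:**
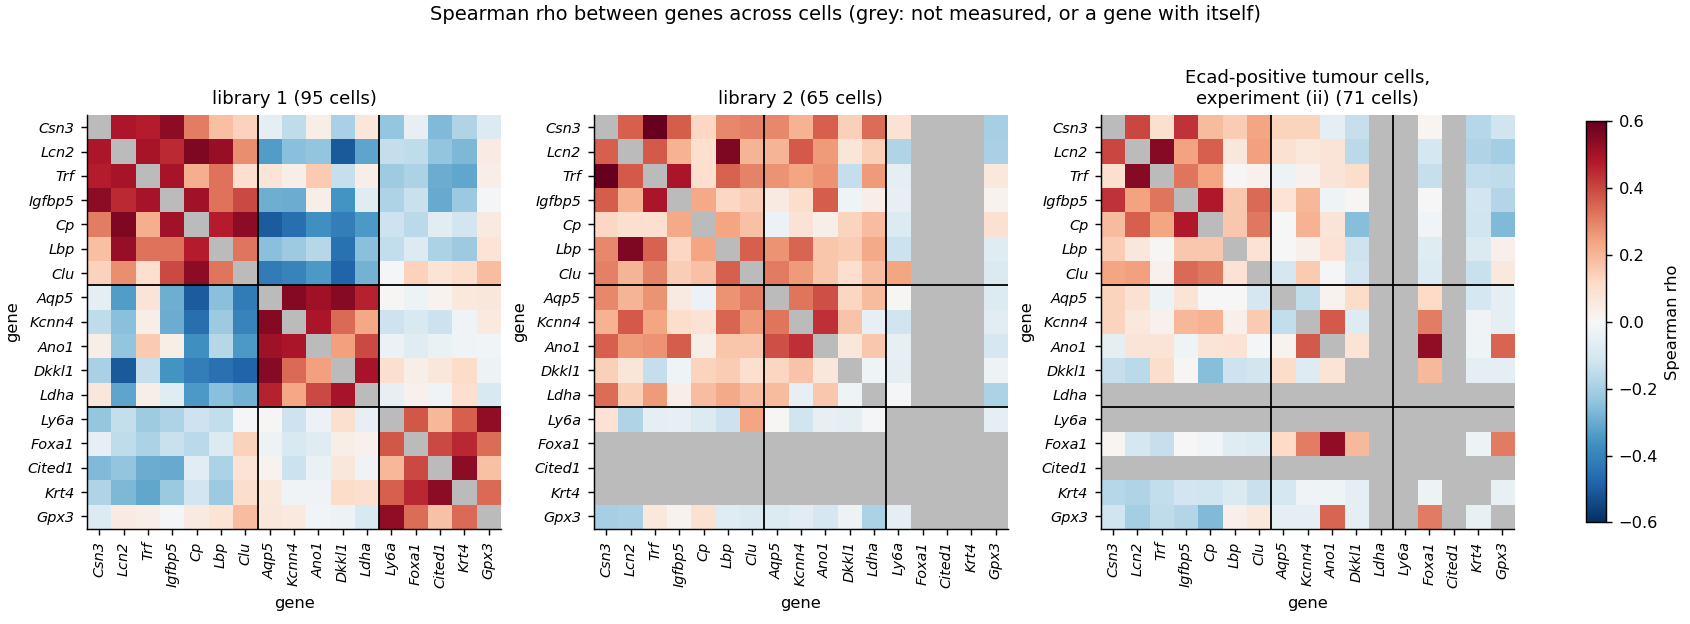
Spearman rho between 17 genes across the cells of library 1, library 2 and the Ecad-positive tumour cells of experiment (ii), red above 0 and blue below, with lines around the secretory set of 7 genes, the channel set of 5 and 5 hormone-sensing genes. The secretory block is red in all 3 maps, while the blue blocks between the first 2 sets are seen in the map of library 1.

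Lists were also taken as summed shares. The milk, secretory and transport lists hold genes of the secretory and channel sets in the same cells, so their values are no separate support for those sets. Milk proteins with secretory and defence genes stood at a rho of 0.44 across cells (0.40 at a given depth), and ribosomal protein genes with translation factors at 0.62, with genes shared by 2 lists left out. The former ran from -0.11 to 0.79 within blocks of wells. Transport genes were lowest against actin and thymosin genes, at -0.36, and stood at -0.28 against secretory and defence genes. The last pair of lists stood at 0.21 in library 2 and at 0.09 in the Ecad-positive tumour cells of experiment (ii). Within single lists the pairs of glycolysis and hypoxia genes were all above 0 (21 of 21, median 0.205), whereas those of oxidative phosphorylation genes were close to the median over all pairs (0.046 over 630 pairs, against 0.025). Cytosolic ribosomal genes had a median of 0.151 over 2556 pairs. The marker pairs themselves were loosely linked: Krt8 with Krt18 stood at 0.24, Cdh1 with Epcam at 0.19 and Epcam with Krt18 at 0.01. Krt18 moved most closely with Slc12a2, a sodium, potassium and chloride carrier, at 0.43, and Epcam with Gpx4 at 0.31. Fos stood at 0.33 with Car6 and at 0.31 with Jun, over 21 and 18 cells with both. Hmgb2, detected in 9 cells, gave no value above 0.283.

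Hormone-sensing genes were carried by a few wells. Wells 29, 96 and 66 had the largest shares, at 1.67, 1.13 and 1.01%, and the fourth had 0.717%. Ly6a, which encodes the surface protein Sca-1, gave 822 of the 1554 transcripts of this list and was detected in 28 cells. The list's share is thus in large part that of 1 surface protein gene. Well 29 held 680 of its 822 transcripts, or 104 per 10000. Wells 96 and 66 stood at 37.02 and 31.9. Foxa1 was at 22.8, 25.8 and 25.9 per 10000 in wells 29, 96 and 66. Cited1, a transcriptional coactivator, was at 3.69, 32.2 and 34.999, and Krt4, a keratin of stratified epithelia, at 11.3, 13.5 and 70.4. Prlr and Pgr, the receptors for prolactin and progesterone, were at 17.4 and 10.7 in well 29. They were lower in well 96, at 8.92 and 1.47, and in well 66, at 1.39 and 4.19. Gpx3, a secreted glutathione peroxidase, was at 89.5, 1.47 and 53.9. Krt8 was highest of all cells in these wells, at 65.5, 65.6 and 125, and Csn3 was low, at 14.7, 8.92 and 7.01. Lcn2 was at 17.4, 2.95 and 9.86 in them. Esr1 was at 0 in all 3. The same wells are deep, with 65391, 6807 and 7200 transcripts, and the part of depth in their shares was not tested beyond scaling. Among 5 of these genes (Ly6a, Foxa1, Cited1, Krt4 and Gpx3, put together after values were seen) the median rho was 0.365 in all cells and 0.226 without wells 29, 47, 66 and 96. Foxa1 with Cited1 went from 0.40 to 0.08, and Ido1 with Krt4 from 0.56 to 0.34. With 3 further genes and Ido1 added, wells 34, 87 and 42 came next with 0.910, 0.806 and 0.616% of their transcripts, after 2.81, 2.33 and 1.29% in wells 29, 66 and 96, and 28 cells had none. Well 34 also held the largest share of fibroblast genes, 0.503% against 0.243% in the next well, and its part in the result was not tested.

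Single wells led other programs as well. Well 12, with 2394 transcripts, had an immediate early share of 2.93%, against 1.11% in the next. It held 23 transcripts of Fos, 96.1 per 10000 against 8.72 in the highest other cell, 22 of Zfp36l1 and 8 of Jun, but none of Egr1 or Csn3. Well 59, with 6824 transcripts, had the largest S phase share at 0.724%, against 0.386% in the next. It held 7 transcripts of Pcna, 5 each of Fen1, Mcm6 and Rrm2, and 2 each of Top2a and Mki67. Csn3 in it was at 96.4 per 10000, close to the median of 105 in the other cells. Well 24 led the NF-kB and inflammatory genes with 0.404%, and well 26 the interferon response with 1.35%.

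Library 2 carries the same sorted label, and its pooled transcripts were compared gene by gene with those of library 1. With 1 library on each side there is no test, and a gene was called at a ratio of 2 or more. Of 4689 genes with at least 20 transcripts over both libraries, 26.8% were higher and 9.94% lower in library 1. Higher genes made up 72.95% of the called genes. That split came to 81.5% when libraries were scaled by the median ratio, which moved the median of all genes from 0.29 to 0.49 (log2), and to 54.5% when cells of both libraries were thinned to 500 transcripts, where 617 genes were left. Of luminal lists, 11 of 22 epithelial genes, 11 of 15 luminal transcription factors, 7 of 9 progenitor genes and 10 of 12 transport genes were called higher, with median ratios of 2.18, 5.73, 4.84 and 5.95 against 1.22 over all genes. Milk proteins had 4 of 8 higher (median 2.02), and secretory and defence genes 6 of 14 higher and 2 lower (median 1.82). Lists that are not luminal had similar values. MHC class I genes had 5 of 10 higher and 1 lower (median 2.35), interferon response genes 7 of 13 higher (2.28) and lipid synthesis genes 7 of 13 higher and 1 lower (2.27). The values of the epithelial, milk and secretory lists were thus not particular to luminal genes. Csn3 was 2.38 times (2.10 to 2.69) and Wfdc18 7.11 times (4.86 to 10.8) as abundant as in library 2. Aqp5 was 7.96 times (5.13 to 13.1), Epcam 2.64 times (1.82 to 3.99) and Cdh1 1.33 times (1.01 to 1.78) as abundant. Ltf, with 362 transcripts against 1, was at a ratio of 57.8 (10.3 to 2288), and Zfp395 with 212 against 1 at 33.8 (6.01 to 1343). Foxa1, with 209 against 0, was at least 11.1-fold higher, taking 3 transcripts over library 2 as the floor, and at least 3.71-fold higher without well 29. Other ratios depended on that well too: that of Gpx3 was 54.8 with it and 9.52 without it, and that of Ly6a 10.9 and 2.22.

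Genes called lower in library 1, 9.94% of all tested, included many of other cell types. All 11 tested macrophage genes, all 8 mesenchymal genes, 6 of 8 basal genes, all 4 MHC class II genes, all 3 endothelial and all 5 fibroblast genes were called lower. So were 4 of 6 leukocyte genes and 1 of 3 neutrophil genes. Outside such lists, 7 of 20 actin and thymosin genes were called lower and 4 higher, and 3 of 8 S100 genes lower and 1 higher. Tagln, Acta2, Myl9 and Mylk, genes of contractile cells, had 11, 3, 3 and 5 transcripts in library 1 and 190, 83, 76 and 109 in the smaller library 2. Apoe stood at 1.58 per 10000 in library 1 and at 72.6 in library 2, and Sparc, a matrix glycoprotein gene, at 0.777 and 47.98. Macrophage genes took 1.499% of library 2 against 0.049% here, basal genes 0.771% against 0.027%, and mesenchymal genes 0.841% against 0.039%. Luminal and other genes thus differed between 2 libraries that also differed in these markers and in depth, and the part of either in the ratios was not tested. Igfbp5 alone of the named secretory genes was lower, at 0.814 times (0.736 to 0.902) the level of library 2.

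Beside the Ecad-positive tumour cells of experiment (ii), the share of 25 of the 34 measured lists lay outside the range of the 4 libraries, 8 above and 17 below. These cells come from another experiment and another table, so that library and experiment cannot be told apart. The tables also differ in the genes they carry: Ldha and Aldoa had a value in library 1 alone, and Ly6e stood at 39.4 per 10000 in library 1 and at 0.118 ± 0.157 (SD, n = 4) there. Over the list members with a value in both tables, 26 of 34 lists lay outside the range, 7 above and 19 below. Above the range were epithelial genes (1.24% against 0.590 to 0.872%), luminal transcription factors (0.431% against 0.143 to 0.242%), transport genes (0.668% against 0.310 to 0.391%) and glycolysis and hypoxia genes (0.754% against 0.355 to 0.397%). Without Ldha and Aldoa the last came to 0.420%. Below it were milk proteins (1.39% against 2.12 to 3.73%), immediate early genes (0.383% against 1.62 to 2.33%) and mesenchymal genes (0.039% against 0.135 to 0.167%). Mitosis genes took 0.064% against 0.071 to 0.220%, but the counting interval of the former, 0.057 to 0.072%, reached into that range. Macrophage and neutrophil genes were below it too, at 0.049 and 0.025% against 0.083 to 0.110% and 0.183 to 0.390%. Csn3 stood at 93.8 per 10000 here and at 136 ± 33.7 (SD, n = 4) there, and Lcn2 at 93.6 and 124 ± 11.4. Fos, an immediate early gene, stood at 1.54 and 33.9 ± 10.3, and Wfdc18 at 27.5 and 136 ± 55.2. Ribosomal protein genes, luminal progenitor genes and S phase genes lay within the range.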

How the data were processed

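Single cells were sequenced by CEL-seq in 96-well libraries on a NextSeq 500, per the labels' protocols. Reads were aligned with BWA 0.6.2-r126 to mm10, per the submitters' processing notes, and how reads became counts is not stated there. Each deposited value is an estimated count of a gene's transcripts in 1 well: a whole number of observed barcodes out of 256, corrected for barcodes drawn more than once, so the largest values are the least exact. Spike-ins were left out of all totals. Doublets were not called, since cells were sorted singly. The table lists 12145 genes.

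Levels, thinned detection, variance over mean, Spearman correlations and pooled ratios were computed with Python 3.11.15, numpy 2.4.6, scipy 1.17.1, pandas 2.3.3 and matplotlib 3.10.9 and checked on simulated data. Library depth was 438102 transcripts, and levels carry counting error only. The cells, gene lists and named genes were chosen with earlier results of these data known. Named genes were the 6 markers, the 25 most abundant and 25 most variable genes, the 15 closest pairs, the closest partners of 6 genes, the 12 highest and 12 lowest ratios to library 2 with at least 50 transcripts, leading list members and the ends of the principal components; 1 of the most variable genes is not reported here. The secretory, channel and hormone-sensing sets, extra pairs, wells and TATAAA were chosen after values were seen. Promoters are from RefSeq on GRCm38.p6. Alternatives were other depth minimums, observed barcodes, thinning, Pearson correlation, other scaling and leaving out wells or libraries. Library 3 of experiment (i) and the other populations of experiment (ii) enter no comparison.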

Additional observations from a re-analysis of the deposited data

Results flagged for a closer look

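Among the 4 libraries of Ecad-positive tumour cells of experiment (ii) that stand beside library 1, a different library lay apart from the other 3 for each of 3 gene lists, by its gap to the nearest library against the whole range. S phase genes reached 0.122% of transcripts in library 2, monocyte and macrophage genes 0.110% in library 4 and adipocyte genes 0.105% in library 3. Chance alone sets about 1 in 20 such groups apart.

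Library 3 of experiment (i) enters no comparison, yet carried transcripts of genes that lead library 1: 7 of Csn3 and 23 of Lcn2 over all its wells, more than the 3 that a count of 0 allows.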

How the results depend on the processing

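The summed level of the 6 markers, 255.9 per 10000, came to 247.5 in cells with at least 2000 transcripts, 228.1 from observed barcodes before correction, 270.4 without well 29 and 293.97 as a mean over cells. Genes per cell, 1664 at full depth, came to 392 and 693 in cells thinned to 500 and 1000 transcripts. Genes with a variance over mean of 2 or more numbered 682 rather than 249 with no filter beyond 3 cells, and pairs at a rho of 0.4 or more 306 rather than 178 with Pearson correlation of log2 values. Genes called higher in library 1 than in library 2 numbered 423 rather than 1257 with at least 50 transcripts required and 115 after thinning to 500, and lower genes 153 and 96 rather than 466; fewer genes are tested under both. Lists outside the range of experiment (ii) numbered 25 to 28 when 1 of its libraries was left out, and 26 over members with a value in both tables, an alternative chosen after seeing the data. Marker and list levels that moved over 1.5-fold were Krt8 and the hormone-sensing list without well 29, and, as a mean over cells, the macrophage list (8.07 rather than 4.91 per 10000) and the adipocyte list (0.672 rather than 1.49). Leaving out wells 29, 47, 66 and 96, chosen after seeing the data, gave 193 variable genes and 149 pairs. Of the 35 correlations followed, that of Epcam with Krt18, near 0 at 0.01, changed sign, to -0.02 without well 47 and -0.04 without the 4 wells; the others kept theirs. No paired analysis was possible because no result comes from a test between groups, and the replicate numbers that the experiments share are names only.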
